A study of Zea mays with 4 samples.

Results

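The genes described here act in DNA methylation and small RNA synthesis in maize root tips. They are DMT105 (GeneID 542060), dmt106 (GeneID 541971), mop1 (GeneID 100502460), rmr7 (GeneID 100037782), dcl1 (GeneID 100381417) and rdr6 (GeneID 100274261). They were chosen by name, through the NCBI symbol or a synonym, and each name matched 1 GeneID, giving 6 of the 48174 genes counted. All samples were inbred B73 seedlings, grown for 3 days at 28 C in constant dim light of about 500 lux, without treatment. Tips of 1 mm were cut from primary roots and seminal roots and pooled, so the root types cannot be told apart, and 4 biological replicates form the only group. Ribosomal RNA was removed before strand-specific libraries with molecular tags were made.

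Plants add methyl groups to cytosines in several sequence contexts, and separate enzymes keep up each context. Chromomethylases such as DMT105 act mainly on CHG sites, where H stands for any base but G, and read a histone mark to find them. New methylation is guided by short interfering RNAs: RNA polymerase IV makes a transcript, an RNA-dependent RNA polymerase copies it into a double strand, and a Dicer-like nuclease cuts it. In maize this route silences transposons and underlies paramutation, the heritable silencing of one allele by another. Related Dicer-like enzymes also make microRNAs and, together with an RNA-dependent RNA polymerase, trans-acting small interfering RNAs. Both kinds of small RNA steer development.

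Library totals ran from 9168900 to 14728797 counts, and the 6 genes together drew 1349 to 3059 counts per library. Levels are given as CPM, a gene's counts per 1000000 counts of its library, and 3 counts correspond to 0.204 to 0.327 CPM. The reference used here gave no transcript lengths, so every comparison between genes below compares reads, and a longer transcript gives more of them. The root cap markers RCP1 and RCP2 summed to 316 to 423 CPM and the PCNA pair, marking dividing cells, to 438 to 501 CPM. Genes of other tissues were near 0, with 9 photosynthesis genes summing to 3.46 to 5.9985 CPM and 44 zein genes, which encode seed storage proteins, to at most 0.0724 CPM.

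The DNA methyltransferase genes stood at the opposite ends of the 6 genes. DMT105, also named met5 or Zmet5, is a chromomethylase gene that keeps up CHG methylation. It was found at 65.7, 49.0, 48.1 and 57.6 CPM in replicates 1 to 4, from 967, 449, 665 and 784 counts. Its mean of 55.1 ± 8.23 CPM (SD, n = 4) was the highest of the 6, and its lowest library lay above every value of the other 5 genes. The second methyltransferase gene, dmt106, was found at 11.9, 7.74, 8.04 and 9.84 CPM, a mean of 9.39 ± 1.94 CPM. All 4 of its values lay below every value of the other 5 genes. Its smallest count, 71 in replicate 2, has an exact 95% Poisson interval of 55.5 to 89.6 counts, which covers counting error only. DMT105 drew 5.49 to 6.32 times the reads of dmt106 in the 4 libraries, a log2 ratio of 2.56 ± 0.08.

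Both rmr7 and mop1 act in making siRNA precursors for silencing. rmr7, also listed as RPD2, encodes the second-largest subunit shared by RNA polymerases IV and V and is needed for paramutation. It was found at 43.6, 24.9, 31.9 and 34.3 CPM, a mean of 33.6 ± 7.74 CPM. Its highest library held 1.75 times the level of its lowest, the widest range of the 6 genes. The RNA-dependent RNA polymerase gene mop1, whose product copies polymerase IV transcripts, was steadier at 30.1, 25.3, 26.1 and 26.5 CPM. Its mean was 27.0 ± 2.12 CPM. In reads rmr7 exceeded mop1 in 3 of 4 libraries, by a log2 ratio of 0.29 ± 0.24, and the order was not settled beyond that spread. Maize carries close relatives of rmr7, and no source used here describes how reads were shared between copies, so its level as a single gene is uncertain.

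The levels of dcl1 and rdr6 were close to each other. dcl1 encodes the Dicer-like nuclease that cuts microRNA precursors, and it was found at 26.1, 20.9, 19.8 and 21.7 CPM. Its mean was 22.2 ± 2.76 CPM. rdr6 encodes the polymerase that makes trans-acting siRNA precursors double-stranded, and it was found at 30.3, 19.3, 18.9 and 18.9 CPM. Its mean was 21.8 ± 5.63 CPM, and replicate 1 stood well above the other libraries, which lay within 0.437 CPM of each other. The reads of dcl1 and rdr6 differed by a log2 ratio of only 0.04 ± 0.18, with dcl1 higher in 3 of 4 libraries. Without replicate 1 the mean of rdr6 was 19.0 CPM and that of dcl1 20.8 CPM.

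**Figure D1:**
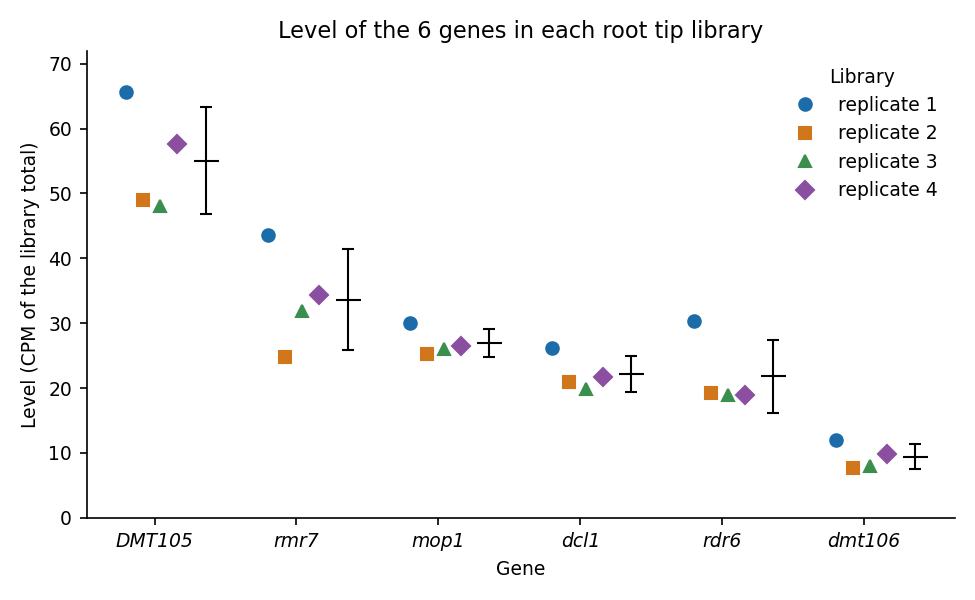
Level in CPM (vertical axis, from 0) of each of the 6 genes in the 4 root tip libraries. Coloured symbols are libraries, and the black bar is the mean ± SD (n = 4). DMT105 lay between 48.1 and 65.7 CPM, above the other genes, and dmt106 between 7.74 and 11.9 CPM, below them.

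The order of the 6 genes in reads was DMT105, rmr7, mop1, dcl1, rdr6 and dmt106. Of the 15 pairs, 12 kept one order in 4 of 4 libraries. The exact sign-flip permutation test (two-sided) gave p = 0.13 for each of those 12, the smallest that 4 libraries allow, and 0.156 after Benjamini-Hochberg adjustment over the 15 pairs. No pair could therefore pass 0.05. The 3 pairs with a mixed order were rmr7 with mop1, mop1 with rdr6, and dcl1 with rdr6. Between neighbours, DMT105 exceeded rmr7 by a log2 ratio of 0.73 ± 0.18, mop1 exceeded dcl1 by 0.29 ± 0.08 and rdr6 exceeded dmt106 by 1.21 ± 0.18.

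The read ratio of a pair carries the difference in transcript length. Its change from library to library does not if length acts on reads alike in each library, which was not tested. Some pairs changed little. The log2 ratio of DMT105 to dcl1 lay between 1.23 and 1.41, and that of mop1 to dcl1 between 0.20 and 0.39. The ratio of rmr7 to mop1 ranged more widely, from -0.03 in replicate 2 to 0.54 in replicate 1. As shares of the 6 genes' reads, DMT105 took 32.6 ± 1.28%, rmr7 19.8 ± 1.93%, mop1 16.1 ± 1.28%, dcl1 13.2 ± 0.729%, rdr6 12.8 ± 1.42% and dmt106 5.53 ± 0.308%.

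All 6 genes had their highest level in replicate 1. Their sum was 208 CPM there and 147, 153 and 169 CPM in replicates 2, 3 and 4. Over all 21046 expressed genes, 22.9% were highest in replicate 1, and over the 9553 genes with a mean level in the range of the 6 genes the share was 24.4%. The level in replicate 1 was 1.59 times the mean of the other libraries for rdr6, 1.44 times for rmr7, 1.40 times for dmt106, 1.27 times for DMT105, 1.25 times for dcl1 and 1.16 times for mop1. The median of this ratio over all expressed genes was 0.994, and 82.7% of expressed genes had a lower ratio than mop1. These 6 values come from the same library and are not independent of each other. Replicate 1 had the largest total, 14728797 counts, while the median gene of that library (expressed, protein-coding) had 14.7 CPM against 13.9 to 15.5 CPM in the others. The PCNA pair was lowest there, at 438 CPM, and the root cap pair stood at 352 CPM. The part of these differences in the result was not tested.

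**Figure D2:**
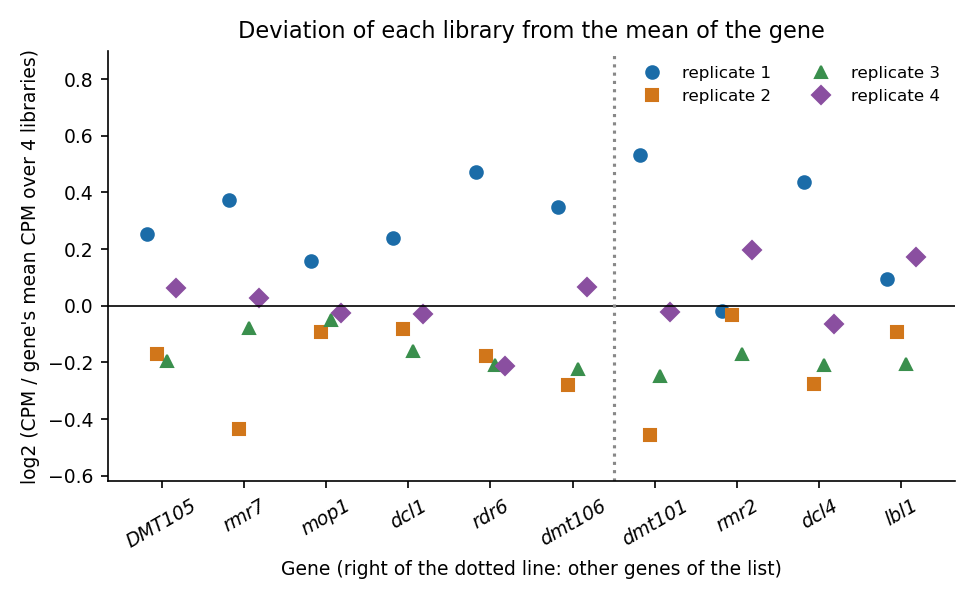
Log2 of each library's CPM over the gene's own mean (vertical axis, 0 is the mean of 4 libraries) for the 6 genes and, right of the dotted line, 4 other genes of the list. Replicate 1 (blue circles) was the highest library in 6 of the 6 genes and in 2 of the 4 others.

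The spread between libraries differed among the genes. The coefficient of variation (the SD as a percentage of the mean) was 7.85% for mop1, 12.5% for dcl1, 14.9% for DMT105, 20.7% for dmt106, 23.0% for rmr7 and 25.8% for rdr6. Counting error alone would give 5.45% for mop1, 9.18% for dmt106 and 6.03% for rdr6. Among genes within a 2-fold window of the same level, 96.5% varied less than rdr6 and 94.7% less than rmr7. For mop1 that share was 26.0%. The high rank of rdr6 rests on replicate 1. Without it, a choice made after seeing the data, the coefficient was 1.29% for rdr6, 2.34% for mop1, 4.57% for dcl1, 10.1% for DMT105, 13.3% for dmt106 and 16.1% for rmr7. The share of genes that varied less was then 1.15% for rdr6, 3.67% for mop1 and 77.5% for rmr7. For rmr7 it was 87.2 to 98.2% when each other replicate was left out in turn. The coefficients of rdr6, mop1 and dcl1 without replicate 1 lie below counting error alone, which is 6.01% for dcl1. They therefore do not show how steady these genes are. With all 4 libraries scaled by TMM, edgeR's correction for composition, the coefficients ran from 7.57% for mop1 to 25.7% for rdr6.

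**Figure D3:**
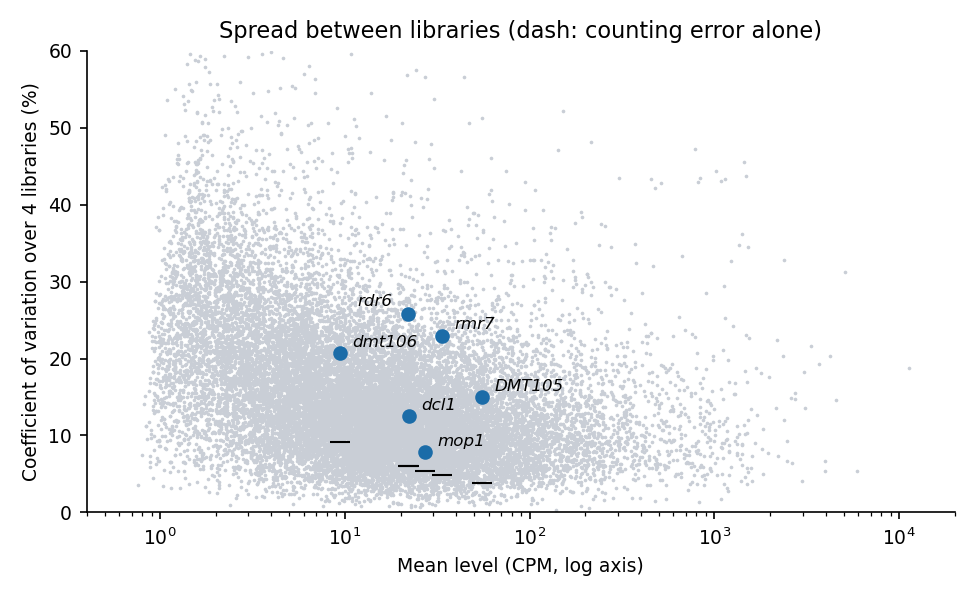
Coefficient of variation over 4 libraries in percent (vertical axis) against the mean level in CPM (horizontal log axis) for expressed genes (grey) and the 6 genes (blue), with a black dash for counting error alone. Of the 21046 genes, 26 with values above 60% are not drawn. Over 4 libraries mop1 is the lowest of the 6 at 7.85% and rdr6 the highest at 25.8%. Without replicate 1 rdr6 is the lowest at 1.29%, a value below its counting error alone (6.03% over 4 libraries).

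Each gene was then set against the median expressed protein-coding gene of its library, with an edgeR quasi-likelihood test of a difference beyond 2-fold in reads. DMT105 lay above the median gene, with 3.76 times its reads, a log2 ratio of 1.91 ± 0.18 and an adjusted p of 4.54e-08, and was higher in 4 of 4 libraries. The call held without each replicate, with adjusted p between 9.96e-08 and 1.54e-06. Thus 1 of the 6 genes was called above and 0 below, beside 25.6% of all expressed genes called above and 27.0% below. A count of 1 in 6 is no higher than that background.

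The other 5 genes did not pass. rmr7 had a log2 ratio of 1.203 ± 0.30, ranging from 0.84 to 1.56 over libraries, with an adjusted p of 0.106 by edgeR. Without replicate 2 it passed (adjusted p = 0.00692), and without replicate 1, 3 or 4 it did not (0.952, 0.147 and 0.0957). mop1 stood at 0.88 ± 0.11, dcl1 at 0.60 ± 0.17, rdr6 at 0.58 ± 0.34 and dmt106 at -0.63 ± 0.26. The log2 ratio was positive in 4 of 4 libraries for mop1, dcl1 and rdr6 and negative in 4 of 4 for dmt106. With no filter on low counts, where the median gene is lower, dmt106 turned to 0.23 without passing. There rmr7, mop1, dcl1 and rdr6 passed (edgeR, adjusted p from 1.15e-15 to 3.4e-05). In that setting 8745 of the 30723 genes with a count were called above and 12774 below. When any difference was tested in place of one beyond 2-fold, DMT105, rmr7, mop1, dcl1 and rdr6 lay above and dmt106 below, beside 44.2% and 47.1% of all expressed genes. Among the 19606 expressed protein-coding genes, 83.6% had fewer reads than DMT105, 73.4% fewer than rmr7, 67.7% fewer than mop1, 62.2% fewer than dcl1, 61.7% fewer than rdr6 and 36.9% fewer than dmt106.

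**Figure D4:**
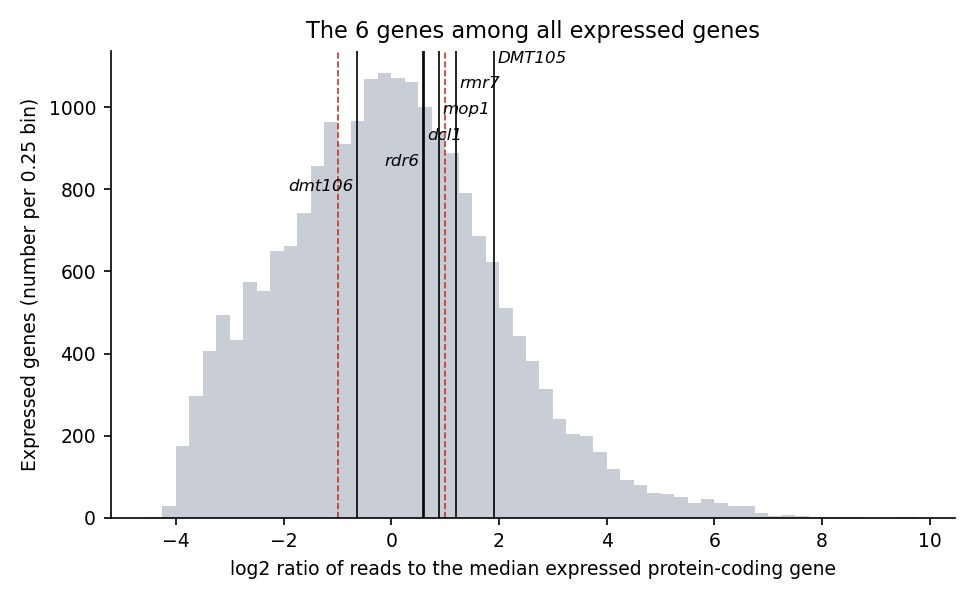
Number of expressed genes (vertical axis) by log2 ratio of reads to the median expressed protein-coding gene (horizontal axis, bins of 0.25), with the 6 genes as black lines and the 2-fold bounds as red dashes. DMT105 at 1.91 and rmr7 at 1.203 lie right of the upper bound, and of these only DMT105 passed the test.

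A further 4 genes of methylation and small RNA synthesis could be matched by name. They were dmt101 (GeneID 542082), which encodes the methyltransferase that keeps up CG methylation, rmr2 (GeneID 100381913), needed for paramutation, dcl4 (GeneID 100381550), a Dicer-like gene of the trans-acting route, and lbl1 (GeneID 100037819), the maize SGS3 gene that acts with rdr6. dmt101 was found at 25.3, 12.8, 14.8 and 17.3 CPM, with replicate 1 highest, as in the 6 genes. Its mean was 17.5 ± 5.51 CPM, against 15.4 ± 1.64 CPM for rmr2, 15.1 ± 3.64 CPM for dcl4 and 10.4 ± 1.23 CPM for lbl1. dcl4, like dmt101, was highest in replicate 1, while rmr2 and lbl1 were highest in replicate 4. By edgeR 0 of these 4 lay beyond 2-fold of the median gene in either direction. Of all expressed genes 25.6% were called above and 27.0% below. Their median log2 ratio was 0.06, beside 0.74 for the 6 genes and -0.07 for all expressed genes. These medians compare reads without a length term, and both sets were chosen with earlier results of these data known. No Argonaute gene, DNA glycosylase gene or DDM1-type remodeller was matched by name in the table used here.

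Nearest in reads to each gene among these 10 were rmr7 to DMT105, mop1 to rmr7, dcl1 to mop1, rdr6 to dcl1, dcl1 to rdr6 and lbl1 to dmt106. In reads lbl1 exceeded dmt106 in 3 of 4 libraries, and the log2 ratio of dmt106 to lbl1 was -0.16 ± 0.19. The partners rdr6 and lbl1 of the trans-acting route stood at 21.8 ± 5.63 and 10.4 ± 1.23 CPM. dcl1 and dcl4 stood at 22.2 ± 2.76 and 15.1 ± 3.64 CPM.

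Genes matched by the met and mbd symbols were added afterwards. met2 (GeneID 541827), the chromomethylase gene most closely related to DMT105, was found at 127, 94.6, 101 and 110 CPM. Its mean of 108 ± 14.1 CPM gave a log2 ratio of 2.89 ± 0.16 to the median gene (edgeR, adjusted p = 1.24e-12), and it too was highest in replicate 1. Both chromomethylase genes were thus above the median gene in reads, with the sharing of reads between these similar genes not described. met4 (GeneID 542067) stood at 12.5 ± 1.06 CPM and did not pass. The mbd genes encode proteins with a methyl-CpG-binding domain, and 11 of 12 were expressed, 2 above, 4 below and 5 neither, beside 25.6% and 27.0% of all expressed genes. mbd101 was the highest at 43.7 ± 2.74 CPM and mbd117 followed at 35.6 ± 7.36 CPM. The call of mbd117 was lost without replicate 1 or 4 (edgeR, adjusted p = 0.149 and 0.0523). mbd109, mbd115, mbd123 and the pseudogene mbd110 lay below, from 3.71 ± 0.183 CPM for mbd123 to 5.30 ± 1.13 CPM for mbd115, whose call was lost without replicate 3 (0.0739). With no filter on low counts all 4 of these calls below were lost (edgeR, adjusted p of 0.563 for mbd123 and 1 for the others). Replicate 1 was the highest library in 3 of the 11 expressed mbd genes.

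**Figure D5:**
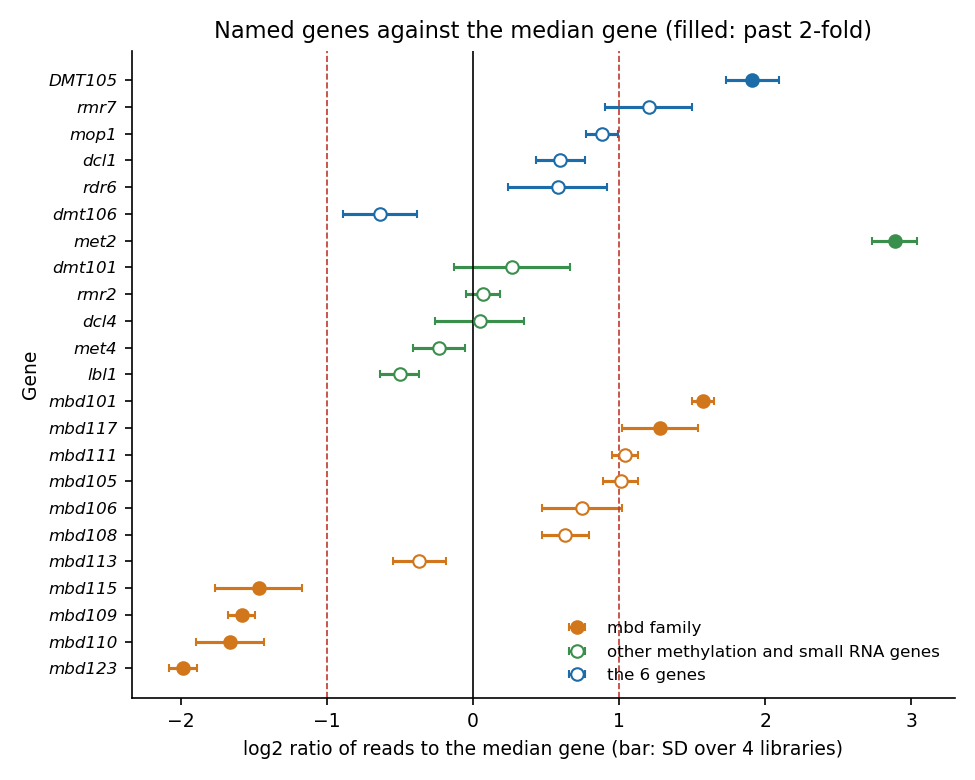
Log2 ratio of reads to the median expressed protein-coding gene (horizontal axis) with the SD over 4 libraries for the 6 genes (blue), other methylation and small RNA genes (green) and the mbd family (orange). Filled symbols passed the 2-fold test; DMT105 at 1.91 and met2 at 2.89 did, and the other 5 of the 6 genes did not.

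The microRNA precursor genes, whose transcripts are the substrate of the dcl1 product, drew few reads. Of 164 such genes 78 had a count and 8 passed the expression filter, beside 30723 and 21046 of all 48174 genes. All 8 were called below the median gene, beside 27.0% of all expressed genes. The comparison has no length term, and the part of transcript length in these low counts was not tested. The 164 genes summed to 28.7 to 41.7 CPM. The highest was MIR159a, at 3.61 ± 0.679 CPM. MIR162, whose microRNA targets the DCL1 transcript in Arabidopsis, had 1 count over 4 libraries. MIR390b, whose microRNA starts the trans-acting route that rdr6 and lbl1 serve, had 11 counts, and MIR390a had 0, which allows up to 0.0584 CPM. The level of any single precursor gene is uncertain where near-identical copies exist, and mature microRNAs were not measured.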

How the data were processed

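Ribosomal RNA-depleted total RNA of 4 root tip samples was measured by strand-specific RNA-seq. The deposited values are estimated counts per GeneID, not normalized. Per the submitters' processing notes, the tools were STAR 2.7.10b, HTSeq, UMI-tools, SAMtools, deepTools and Trimmomatic (0.36 and 0.39). Settings, build, strand option and any collapse of tagged reads were not given in the sources used here. Intervals and floors cover counting error only, and where tagged reads were not collapsed they understate it.

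Values were rounded to whole numbers; 3062 of 48174 genes held fractions (tolerance 1e-06), and 0 of the 6 genes did. Names came from the RefSeq table of Zm-B73-REFERENCE-NAM-5.0, which matched 48127 GeneIDs; no listed gene overlapped the 6. Because it gave no coding lengths, the planned length term was left out. A further table with 5 columns matching no sample was not used. Expressed genes passed edgeR's filterByExpr (minimum count 10, total 15). An intercept-only edgeR 4.0.16 quasi-likelihood fit took as offset, in each library, the median gene among expressed protein-coding genes. F was formed at the nearer 2-fold bound, with Benjamini-Hochberg adjustment over 21046 genes at 0.05. The procedure was tested on counts simulated from the fit itself, which checks the code and not the calls in these data. DESeq2 1.42.0 and limma 3.58.1 were alternatives. Pairs of libraries differed beyond counting noise (chi-square per degree of freedom 6.99 or more). Members and lists were chosen with earlier results of these data known. The genes named are the 6, each other gene of the list, and, added later, the met and mbd genes and precursors described. The labels name biological replicates without saying what was grown apart, so p-values measure the spread between these samples, which may be technical in part. The edgeR p-values also draw on the spread of all fitted genes and take the median gene as fixed, without error.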

Additional observations from a re-analysis of the deposited data

Results flagged for a closer look

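In rdr6, replicate 1 (30.3 CPM) stood apart from the other libraries (18.9 to 19.3 CPM), the gap being 0.962 of the range, above the 95% critical value of Dixon's test for 4 samples. In the log2 ratio of rmr7 to dcl1, replicate 2 (0.25) stood apart from the others (0.66 to 0.74), with a gap of 0.837 of the range. Of 38 groups of 4 values examined 2 stood apart in this way, and chance alone sets apart about 1 in 20.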

How the results depend on the processing

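DMT105 kept its call above the median gene under all 12 alternatives, with log2 ratios of 1.82 to 2.78. rmr7 passed with the median gene of all classes, chosen after seeing the data (1.29, adjusted p = 0.0222 by edgeR), and leaving out single replicates gave 1.06 to 1.34. With no filter on low counts, where the median gene is lower, rmr7 (2.07), mop1 (1.75), dcl1 (1.47) and rdr6 (1.45) passed, so 5 of the 6 lay above, and dmt106 turned to 0.23. The genes lbl1, met4 and mbd113 turned to 0.37, 0.64 and 0.50 there, 8745 of the 30723 genes with a count lay above and 12774 below, and 6 mbd genes lay above and 1 below, which was mbd120, with 1 count. Without the 2-fold threshold the log2 ratios were unchanged at 1.203 (rmr7), 0.88 (mop1), 0.60 (dcl1), 0.58 (rdr6) and -0.63 (dmt106), and all passed. That gave 5 of the 6 above and 1 below, and 1 of the 4 other genes above and 1 below. Of the mbd genes 6 lay above and 5 below, and of all expressed genes 9312 lay above and 9917 below. With the median gene of all classes 2 of the 6 lay above, beside 5677 of the 21046 expressed genes. With at least 1 CPM in every library 1 mbd gene lay above, beside 5155 genes in all, and dcl4 stood at -0.0192. Leaving out each replicate gave 1 to 2 of the 6 above and 1 to 2 mbd genes above, beside 5202 to 5464 genes in all. The same step gave -0.13 to 0.14 for dcl4. Coefficients of variation ran from 1.29 to 29.0% for rdr6, 2.34 to 9.45% for mop1 and 4.57 to 15.1% for dcl1, each lowest without replicate 1. Those lowest values lie below counting error alone. The log2 ratio of dcl1 to rdr6 ran from -0.0082 without replicate 4 to 0.13. TMM and DESeq2 scaling moved no level of the 6 by more than its SD. With 4 libraries, depth limits dmt106 most, at 71 to 176 counts. A fit with a length term could not be made, since no lengths were at hand. No paired analysis was possible because there is 1 group.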
